A study of Mus musculus with 32 samples.

Results

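The epidermal growth factor (EGF) receptor gene Egfr, the genes of 6 ligands that bind it and the gene of its inhibitor Errfi1 were followed across the mouse distal colon of 2 genotypes, with and without a tumour-inducing treatment. The 8 genes (Ereg, Hbegf, Tgfa, Btc, Epgn, Egf, Egfr and Errfi1) were chosen by name, with earlier results of these data known. All 8 were found among the 18194 genes with a named probe set. They were measured by 19 of the 45101 probe sets of the array, and the probe set with the highest mean over the 32 arrays stood for each gene. In the KO mice 6 of the 8 genes, namely Ereg, Epgn, Hbegf, Egfr, Btc and Tgfa, were higher after treatment than without it, as were 8.70% of all genes. Only Btc and Tgfa still passed when the KO arrays alone were fitted. None of the 8 passed the test for a treatment response that differs between the genotypes. Tgfa alone also passed the test between treated KO and treated WT mice, where 12.8% of all genes did. That call depended on the probe set chosen. With the probe sets of each gene averaged, Btc and Egfr passed there and Tgfa did not.

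The ligands are made as proteins anchored in the cell membrane, and metalloproteases of the ADAM family cut them free. A bound ligand brings receptor molecules together, their kinase domains become active, and the signal runs through a cascade of kinases (the ERK pathway) to early response genes such as Fos and Egr1. In the gut the receptor is known for driving growth of crypt cells and closure of wounds in the epithelium, and Errfi1, which is induced by the signal, binds the kinase domain and blocks it.

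The 4 groups were compared with an array for each mouse. Treated KO mice (n = 10) lacked the adaptor protein MyD88 (Myd88-/-), which most Toll-like receptors and the receptors of IL-1 and IL-18 need to signal. These mice received the carcinogen azoxymethane (AOM) at 10 mg/kg into the peritoneum and 1 week later 2% DSS (dextran sodium sulfate), an irritant of the colon epithelium, for 3 days. Treated WT mice (n = 10) received the same, and treated mice of both genotypes were 6 to 8 weeks old. Untreated KO mice (n = 6) and untreated WT mice (n = 6) received neither agent, and the labels give no age for them. Per the labels all mice were C57 BL6NCr, the knockouts after backcrossing, and the knockout was carried by the whole animal, so no cell type is singled out by it. The tissue was whole distal colon. In RNA of whole tissue, a change in the number of cells of a type and a change in RNA per cell cannot be told apart. The spread between arrays is that between the mice as labelled, and the number of mice limits the precision.

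The deposited log2 signals had a floor of 3.322, shared by 18.7% to 23.9% of all probe sets, depending on the array. Myd88 itself averaged 8.00 ± 0.31 (SD, n = 10) in treated KO and 8.46 ± 0.12 (SD, n = 10) in treated WT mice, with overlapping ranges. Without treatment it averaged 7.67 ± 0.11 (SD, n = 6) in KO and 8.40 ± 0.11 (SD, n = 6) in WT mice, and the ranges did not overlap. A mean over 12 markers of colon epithelium lay between 11.6 and 12.5 over the 32 arrays, and no marker sat at the floor throughout a group, which fits the labelled tissue. Markers of squamous epithelium, which lines the neighbouring anal canal, varied between arrays of a group. Their mean over 11 genes ran between 4.45 and 7.78 in treated KO, 4.38 and 11.1 in treated WT, 4.12 and 7.96 in untreated KO, and 4.19 and 6.18 in untreated WT mice.

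Ereg encodes epiregulin, a ligand made in injured tissue, and it showed the largest change of the 8 genes in KO mice. On the log2 signal scale its lowest, median and highest arrays stood at 6.45, 8.41 and 10.8 in treated KO mice. They stood at 6.67, 7.51 and 9.09 in treated WT, 5.93, 6.64 and 7.13 in untreated KO, and 5.84, 6.42 and 6.81 in untreated WT mice. Of the 10 treated KO arrays 9 lay above every untreated KO array, while treated KO and treated WT mice overlapped broadly. Treatment raised Ereg by 1.88 ± 0.48 log2 units in KO mice, or 3.69-fold (limma, adjusted p = 0.00576). In WT mice the difference was 1.16 ± 0.48 and did not pass (limma, adjusted p = 0.233). Repeats 3 and 4 of the treated KO mice were the highest, at 10.84 and 10.49.

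Hbegf encodes heparin-binding EGF-like growth factor, the ligand that also serves as the receptor of diphtheria toxin in human cells. Its lowest, median and highest log2 signals were 7.28, 8.09 and 10.3 in treated KO mice and 7.29, 7.60 and 8.31 in treated WT mice. Untreated KO mice ran over 6.15, 7.29 and 7.76, and untreated WT mice over 5.95, 6.62 and 6.98. All 10 treated WT arrays were above all 6 untreated WT arrays, a separation that 1.42% of all genes showed in either direction. Hbegf rose by 1.14 ± 0.32 log2 units with treatment in KO mice, or 2.21-fold (limma, adjusted p = 0.0130). The difference in WT mice was nearly as large, 1.10 ± 0.32, and missed the threshold (limma, adjusted p = 0.0777). These SEs come from 1 estimate of the spread over all 4 groups. With only the compared groups fitted, Hbegf passed in WT mice (1.10 ± 0.16, limma, adjusted p = 0.00248). In KO mice it then did not (1.14 ± 0.42, limma, adjusted p = 0.0994). Without repeat 6 of the untreated KO mice, its lowest array there, the rise in KO mice was 0.93 and no longer passed (limma, adjusted p = 0.0508).

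Tgfa encodes transforming growth factor alpha, a ligand that intestinal epithelial cells make themselves. It ran over 7.73, 8.00 and 8.49 (lowest, median and highest log2 signal) in treated KO and over 7.36, 7.64 and 8.04 in treated WT mice. The untreated arrays lay at 7.33, 7.65 and 7.87 in KO and at 7.63, 7.75 and 7.91 in WT mice. Every treated KO array was above the medians of treated WT and of untreated KO mice, and no other group reached as high. With treatment Tgfa rose by 0.43 ± 0.11 log2 units in KO mice, or 1.34-fold (limma, adjusted p = 0.00733). Its difference in WT mice was -0.10 ± 0.11 (limma, adjusted p = 0.751). Probe set 1450421_at of Tgfa differed by 0.14 with treatment in KO mice and did not pass. The other, 1421942_s_at, was at the floor on 12 of the 32 arrays, so its differences are not read here.

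Btc and Epgn encode betacellulin and epigen, and both lie in a row with other ligand genes. On chromosome 5 the protein-coding genes Epgn, Ereg, Areg and Btc follow each other with no other protein-coding gene between them, and Areg was not analysed here. The promoter windows of Epgn, Btc and Egfr are printed because these genes rose in KO mice and had a window that lay before every transcript of the gene in the RefSeq table. Each window is the 250 bases before the start of the gene in RefSeq's GRCm38.p6, read 5′ to 3′ on the strand of the gene. Capitals mark matches to any of 6 motifs searched on both strands: TGANTCA (AP-1), TGACGTCA (CRE), TATAAA (bound by TBP), GGGCGG (bound by SP1), GCGNGGGCG (EGR) and CCAAT (bound by NF-Y). The windows lie at chr5:91027267-91027516 on the plus strand for Epgn, at chr5:91402995-91403244 on the minus strand for Btc and at chr11:16751953-16752202 on the plus strand for Egfr.
Epgn: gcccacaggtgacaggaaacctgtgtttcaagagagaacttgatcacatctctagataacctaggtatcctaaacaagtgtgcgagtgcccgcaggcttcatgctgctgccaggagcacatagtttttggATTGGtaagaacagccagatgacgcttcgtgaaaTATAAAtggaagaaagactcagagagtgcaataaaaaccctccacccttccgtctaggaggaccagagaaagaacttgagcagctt
Btc: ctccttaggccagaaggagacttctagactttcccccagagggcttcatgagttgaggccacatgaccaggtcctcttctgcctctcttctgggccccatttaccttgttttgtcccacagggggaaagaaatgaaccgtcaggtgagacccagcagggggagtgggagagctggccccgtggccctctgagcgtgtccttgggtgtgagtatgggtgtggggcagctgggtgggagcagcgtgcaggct
Egfr: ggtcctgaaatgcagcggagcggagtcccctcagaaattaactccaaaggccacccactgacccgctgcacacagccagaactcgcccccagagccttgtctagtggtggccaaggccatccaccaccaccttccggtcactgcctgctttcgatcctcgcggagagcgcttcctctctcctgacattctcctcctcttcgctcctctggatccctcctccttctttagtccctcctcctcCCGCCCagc
In the Epgn window the capitals are CCAAT on the minus strand, 120 to 116 bases before the start, and TATAAA, 86 to 81 bases before it. The Egfr window holds GGGCGG on the minus strand, 9 to 4 bases before the start, and the Btc window holds none of the 6 motifs. Of 32851 windows of the same length, 33.8% held CCAAT, 12.4% TATAAA, 32.7% GGGCGG, 6.75% TGANTCA, 4.70% GCGNGGGCG and 1.55% TGACGTCA. These matches describe letters and not bound sites.

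Btc had 6.79, 7.15 and 7.58 as its lowest, median and highest log2 signal in treated KO mice, against 6.64, 6.84 and 7.18 in treated WT mice. Untreated KO mice lay at 6.37, 6.68 and 7.11, and untreated WT mice at 6.43, 6.67 and 6.82. Treated KO arrays reached highest, and 5 of the 10 were above all untreated KO arrays. Btc rose by 0.45 ± 0.11 log2 units with treatment in KO mice, or 1.37-fold (limma, adjusted p = 0.00477), and in WT mice the difference was 0.22 ± 0.11 (limma, adjusted p = 0.368). A dimmer second probe set of Btc rose by 0.86 in KO mice (limma over all probe sets, adjusted p = 0.00158).

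Epgn was the dimmest of the 8 genes. Its lowest, median and highest log2 signals were 3.53, 4.75 and 5.65 in treated KO and 3.32, 4.12 and 4.84 in treated WT mice. In untreated mice they were 3.32, 4.04 and 4.51 in KO and 3.32, 3.96 and 4.21 in WT. The lowest value in the last 3 groups is the floor, which 1 treated WT, 2 untreated KO and 1 untreated WT array touched, so changes against it are too small. Epgn rose by 0.83 ± 0.26 log2 units in KO mice, or 1.78-fold (limma, adjusted p = 0.0240). The difference in WT mice was 0.33 ± 0.26 (limma, adjusted p = 0.611). The call in KO mice was lost without untreated KO repeat 1 (adjusted p = 0.0715) or repeat 3 (adjusted p = 0.0699). It was also lost on the values as deposited (0.74, limma, adjusted p = 0.0565) and with RNA integrity, measured as 3' minus 5' signal of the Gapdh and Actb controls, added to the model (0.77, limma, adjusted p = 0.0679). That measure averaged -0.02 ± 0.04 (SD, n = 10) in treated KO and 0.01 ± 0.03 (SD, n = 6) in untreated KO mice.

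Egf, the ligand that names the family and is abundant in kidney and salivary gland, did not pass in any comparison. Its log2 signal ran over 4.47, 5.44 and 6.74 (lowest, median and highest) in treated KO and over 4.81, 5.37 and 5.93 in treated WT mice. In untreated mice it ran over 5.50, 5.62 and 6.19 in KO and over 5.57, 5.83 and 5.99 in WT. Both treated groups thus reached lower than the untreated ones, with the highest array of all among the treated KO mice. Treated minus untreated was -0.33 ± 0.23 in KO (limma, adjusted p = 0.338) and -0.34 ± 0.23 in WT mice (limma, adjusted p = 0.519).

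**Figure D1:**
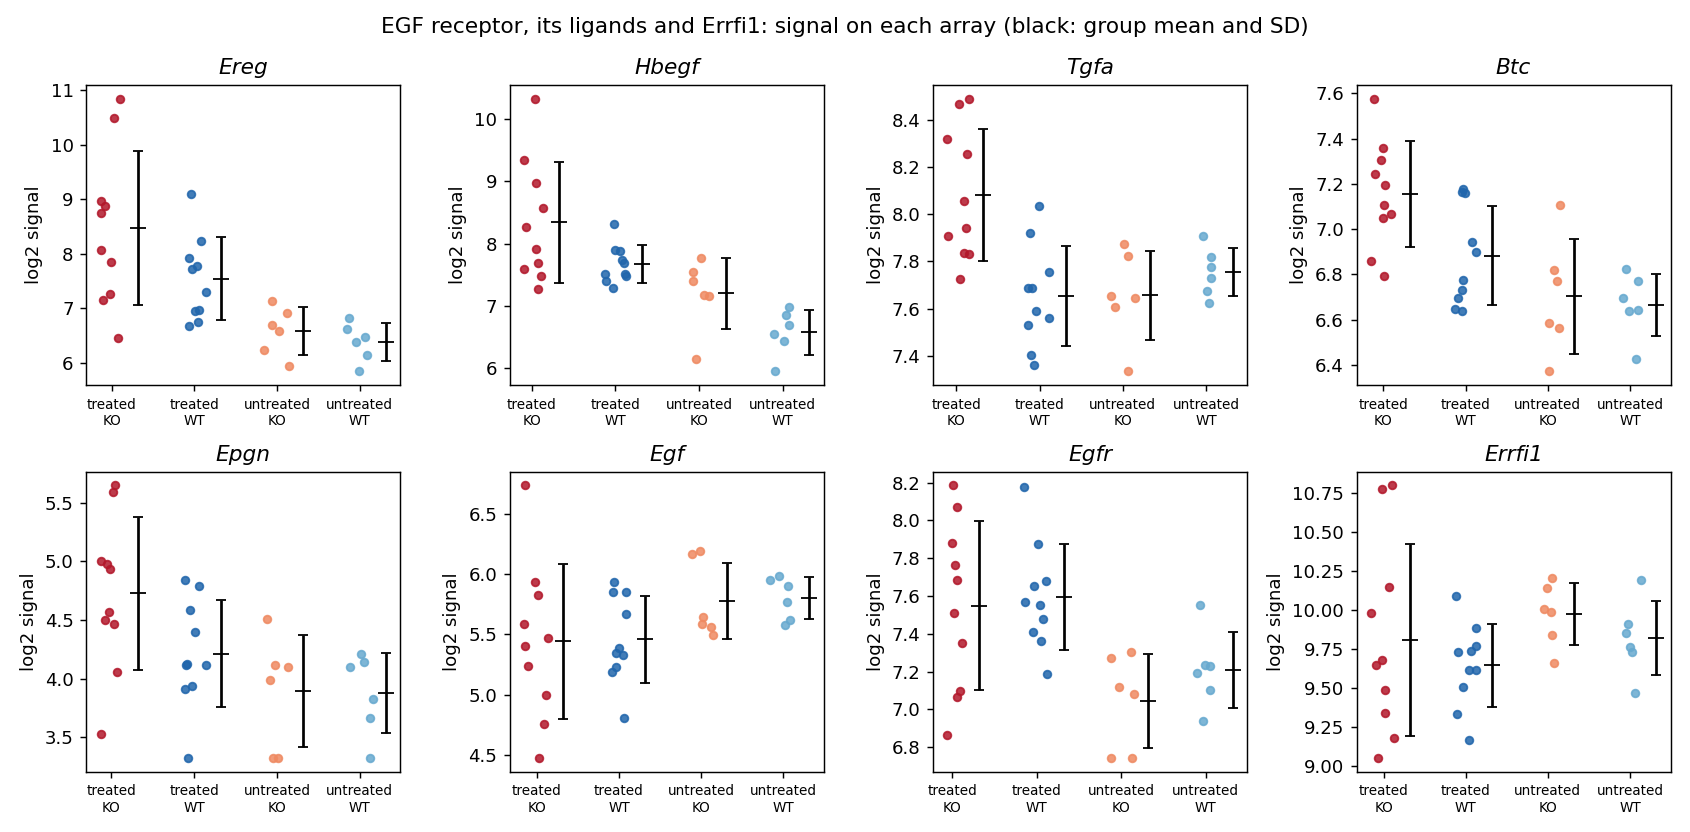
Log2 signal of the 8 genes on each of the 32 arrays, 1 panel per gene and 1 point per mouse, with groups from left to right treated KO, treated WT, untreated KO and untreated WT. Black marks are the group mean and SD. Ereg and Hbegf spread most widely among the treated KO arrays, up to 10.8 and 10.3, and Hbegf in treated WT mice lies wholly above untreated WT mice.

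The receptor gene Egfr was represented by probe set 1435888_at. Its lowest, median and highest log2 signals were 6.86, 7.60 and 8.19 in treated KO mice and 7.19, 7.56 and 8.18 in treated WT mice. Untreated arrays lay at 6.74, 7.10 and 7.30 in KO and at 6.94, 7.21 and 7.55 in WT mice. Arrays of both treated groups reached higher than the untreated ones, and the 2 treated groups covered nearly the same range. The highest treated WT arrays, repeats 1 and 2 (8.18 and 7.88), also had the highest squamous marker means of their group, 11.1 and 9.88. Egfr rose by 0.50 ± 0.17 log2 units in KO mice, or 1.42-fold (limma, adjusted p = 0.0331), and differed by 0.39 ± 0.17 in WT mice (limma, adjusted p = 0.262). The call in KO mice was lost in 6 of the fits that left out 1 array: without treated KO repeat 3 (adjusted p = 0.0609), 5 (0.0619) or 10 (0.0568), or without untreated KO repeat 2 (0.0524), 4 (0.0848) or 5 (0.0891). It was also lost on the values as deposited (0.47, limma, adjusted p = 0.0503) and with RNA integrity in the model (0.45, limma, adjusted p = 0.0954).

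The 7 probe sets assigned to Egfr moved together only in part. Probe set 1460420_a_at was as bright as the one chosen, both averaging 7.40 over the 32 arrays, yet their correlation over these arrays was -0.11. Probe set 1424932_at correlated with the chosen one at 0.80 and with 1451530_at at 0.62, and 1457563_at was at the floor on 22 of the 32 arrays. In treated KO mice relative to treated WT mice 1460420_a_at was higher by 0.40 ± 0.10 (limma over all probe sets, adjusted p = 0.0129), against -0.05 for 1435888_at. Probe sets 1451530_at and 1432647_at also passed there, with differences of 0.44 and 0.54. With treatment in KO mice 1435888_at, 1424932_at and 1451530_at rose by 0.50, 0.50 and 0.64, whereas 1460420_a_at differed by 0.12 and did not pass. Only 1451530_at passed in both comparisons. Between the treated genotypes 1424932_at and 1454313_at differed by 0.27 and 0.26 and did not pass. Only 1435888_at lay below 0 there, at -0.05 ± 0.14, which is within its SE. The size of the Egfr difference between the treated genotypes thus depended on the probe set. Which part of the transcripts each probe set reads was not analysed here.

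**Figure D2:**
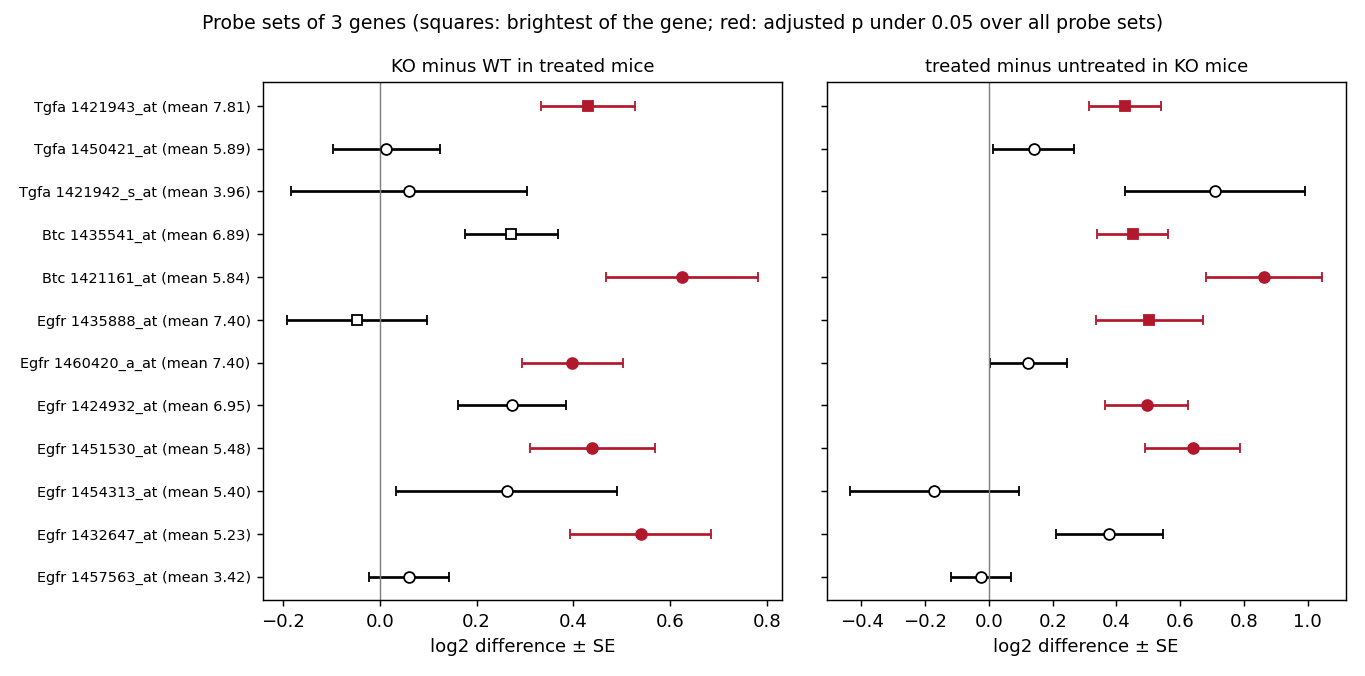
Log2 difference ± SE of every probe set of 3 genes with several probe sets, with the brightest probe set of each gene as a square and red where the limma adjusted p over all probe sets was under 0.05. For Egfr the probe sets that passed between treated KO and treated WT mice are not the same as those that passed with treatment in KO mice, apart from 1451530_at.

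The inhibitor Errfi1 was the brightest of the 8 probe sets chosen and passed in no comparison. Its lowest, median and highest log2 signals were 9.05, 9.66 and 10.8 in treated KO mice and 9.17, 9.67 and 10.1 in treated WT mice. Untreated KO mice lay at 9.66, 10.00 and 10.2, and untreated WT mice at 9.47, 9.81 and 10.2. The 4 groups overlapped, with the treated KO arrays the most spread. Treated minus untreated was -0.16 ± 0.20 in KO (limma, adjusted p = 0.652) and -0.18 ± 0.20 in WT mice (limma, adjusted p = 0.770).

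Counted over the treatment response in KO mice, 6 of the 8 genes rose and none fell, where 18.7% of all 18194 genes passed in either direction, 8.70% passed as higher and 10.0% as lower. The median difference of the 8 genes was 0.48 log2 units, and that of all genes was 0. Because the genes were chosen with earlier results of these data known, these comparisons describe the set and do not test it. In WT mice 0 of the 8 passed in limma, where 1.84% of all genes did, and their median difference was 0.28. Ereg, Hbegf and Egfr had an unadjusted p under 0.05 in WT mice. No gene of the 8 had all treated KO arrays on one side of all untreated KO arrays, as 2.04% of all genes did. The 6 that rose were fewer when only the 16 KO arrays were fitted, in which Btc and Tgfa alone passed.

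Whether treatment acted differently in the genotypes was tested by the interaction of genotype and treatment, in which 0.0550% of all genes passed and 0 of the 8 did in limma. Of the 8 only Tgfa had an unadjusted p under 0.05 there. The share over all genes moved with single arrays, to 0.901% (164 genes in place of 10) without treated KO repeat 9 and 0.198% (36 genes) without treated KO repeat 6. The interaction was 0.72 ± 0.68 log2 units for Ereg (limma, adjusted p = 0.732), with a 95% confidence interval of -0.66 to 2.10. For Tgfa it was 0.53 ± 0.16 (limma, adjusted p = 0.176), the smallest adjusted p of the 8, and for Hbegf 0.05 ± 0.46 (limma, adjusted p = 1). A response that passed in KO and not in WT mice was therefore not shown to differ between them for any of these genes.

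Between treated KO and treated WT mice Tgfa was the 1 gene of the 8 that passed, where 12.8% of all genes did and 6.25% were higher, so the share of 1 in 8 is near the background. None of the 8 parted the treated KO from the treated WT arrays without overlap, as 0.231% of all genes did. It was higher in KO mice by 0.43 ± 0.10 log2 units, or 1.35-fold (limma, adjusted p = 0.00392), and its probe set 1450421_at differed by 0.01. With the probe sets of the gene averaged, Tgfa differed by 0.17 and no longer passed (limma, adjusted p = 0.355). Btc differed by 0.27 ± 0.10 (limma, adjusted p = 0.0617). It passed when any of 6 single arrays was left out: treated KO repeat 6 (adjusted p = 0.0279) or 9 (0.0301), treated WT repeat 6 (0.0390), 7 (0.0402) or 9 (0.0393), or untreated KO repeat 5 (0.0473). Its dimmer probe set was higher by 0.62 (limma over all probe sets, adjusted p = 0.0102). The differences of Ereg, Hbegf and Epgn were 0.93 ± 0.41, 0.67 ± 0.28 and 0.51 ± 0.23 (limma, adjusted p = 0.146, 0.120 and 0.142). Without treated KO repeat 9, its lowest array, Ereg was higher by 1.15 and passed (limma, adjusted p = 0.0411), and without treated KO repeat 6 Epgn was higher by 0.65 and passed (limma, adjusted p = 0.0376). The share of all genes that passed was 16.6% without repeat 9 and 13.6% without repeat 6, in place of 12.8%. Egf, Egfr and Errfi1 differed by -0.02, -0.05 and 0.16. The comparison shares its treated KO arrays with the treatment response in KO mice, so the 2 sets of values are not independent.

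Without treatment 0 of the 8 genes passed between KO and WT mice in limma, where 0.115% of all genes did, and none of the 8 had an unadjusted p under 0.05. The largest difference was that of Hbegf, 0.62 ± 0.36 log2 units (limma, adjusted p = 0.780), with 5 of 6 KO arrays above all WT arrays. The other 7 differed by between -0.16 and 0.21. No gene of the 8 parted the 2 untreated groups, as 0.951% of all genes did.

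**Figure D3:**
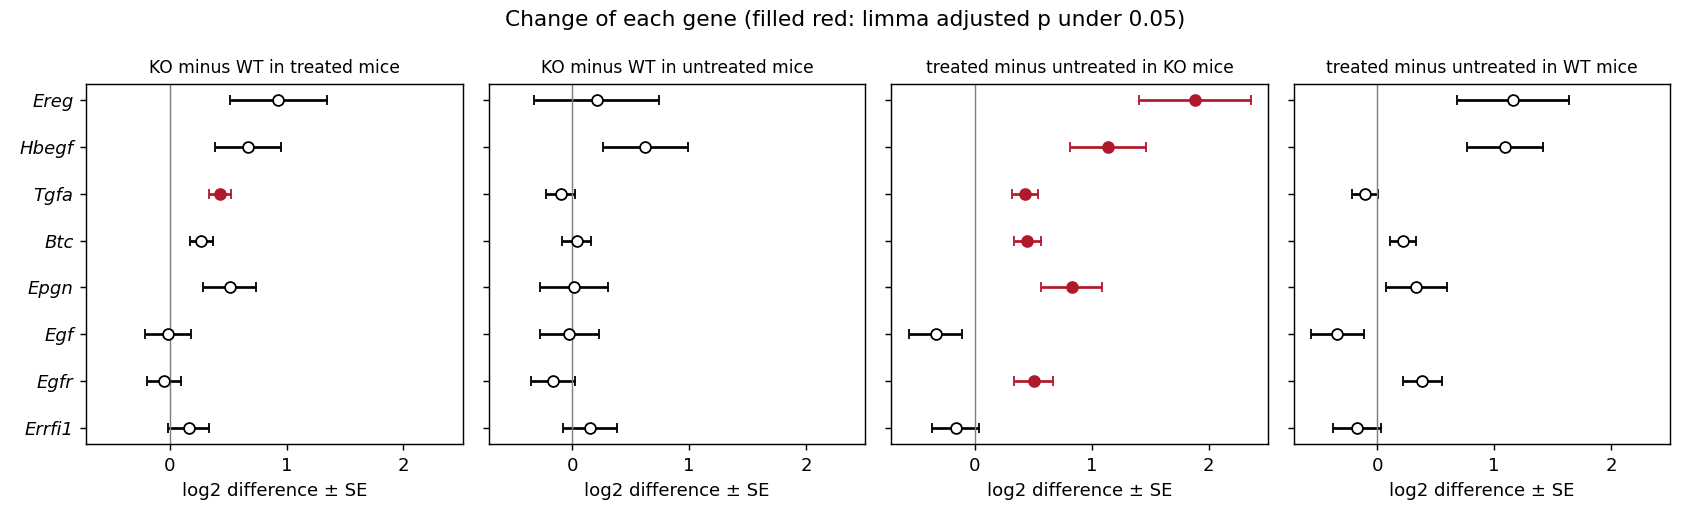
Log2 difference ± SE of the 8 genes in 4 comparisons, 1 panel each, in red where the limma adjusted p was under 0.05. In KO mice 6 genes stand right of 0 in red after treatment, Ereg farthest at 1.88, and between the treated genotypes only Tgfa is red, at 0.43.

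Ordered by group mean, Ereg, Hbegf, Btc and Epgn shared an order, highest in treated KO, then treated WT, untreated KO and untreated WT mice. Tgfa was highest in treated KO and lowest in treated WT mice, Egf highest in untreated WT and lowest in treated KO mice, Egfr highest in treated WT and lowest in untreated KO mice, and Errfi1 highest in untreated KO and lowest in treated WT mice. Every pair of neighbours in these orders overlapped in range.

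The spread among treated KO mice differed between the genes. The SD of Hbegf was 0.97 log2 units in treated KO and 0.30 in treated WT mice, a ratio of 3.20, larger than in 97.4% of 10917 brighter genes, whose median ratio was 1.40. The ratios of Errfi1 and Ereg were 2.32 and 1.86, above 88.6% and 75.0% of these genes. Egf (1.79) and Egfr (1.60) were also above the median, Epgn (1.42) lay near it, and Tgfa (1.31) and Btc (1.07) lay below it. Repeats 3 and 4 of the treated KO mice were the highest of the 10 for Ereg, Hbegf and Errfi1. Repeat 3 also had the highest means of the macrophage and monocyte markers (9.34), of the fibroblast markers (12.0) and of the squamous markers (7.78) in that group, and the part of these cells in its values was not tested.

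Hbegf and Errfi1 varied together from mouse to mouse among the treated KO mice. Over the 10 treated KO arrays Pearson's r was 0.933 (permutation test, p = 5e-05, adjusted p = 0.0056) and Spearman's rho 0.903 (permutation test, p = 0.00071, adjusted p = 0.0398), two-sided and adjusted over 112 tests. Without repeats 3 and 4, the arrays farthest from the median of Hbegf, r was 0.877 over 8 arrays. Of the 28 pairs of the 8 genes this was the only 1 that passed by both coefficients in treated KO mice, and 0 of 28 did in treated WT mice. Over the 10 treated WT arrays Hbegf and Errfi1 had r = -0.102 and rho = -0.201 (permutation test, adjusted p = 0.927 and 0.848). Whether the groups differ in this relation was not tested. How many other gene pairs vary as closely over these arrays was not counted, so the relation is not shown to be particular to this pair. Ereg and Hbegf had r = 0.832 in treated KO mice (permutation test, adjusted p = 0.0974), and r was 0.599 without repeats 3 and 4. Between Ereg and Errfi1 r was 0.774 with all 10 arrays (permutation test, adjusted p = 0.132) and 0.280 without these, so r leaned on the 2 arrays. Spearman's rho of that pair was 0.709 with all 10 arrays (permutation test, adjusted p = 0.201), and neither coefficient passed.

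**Figure D4:**
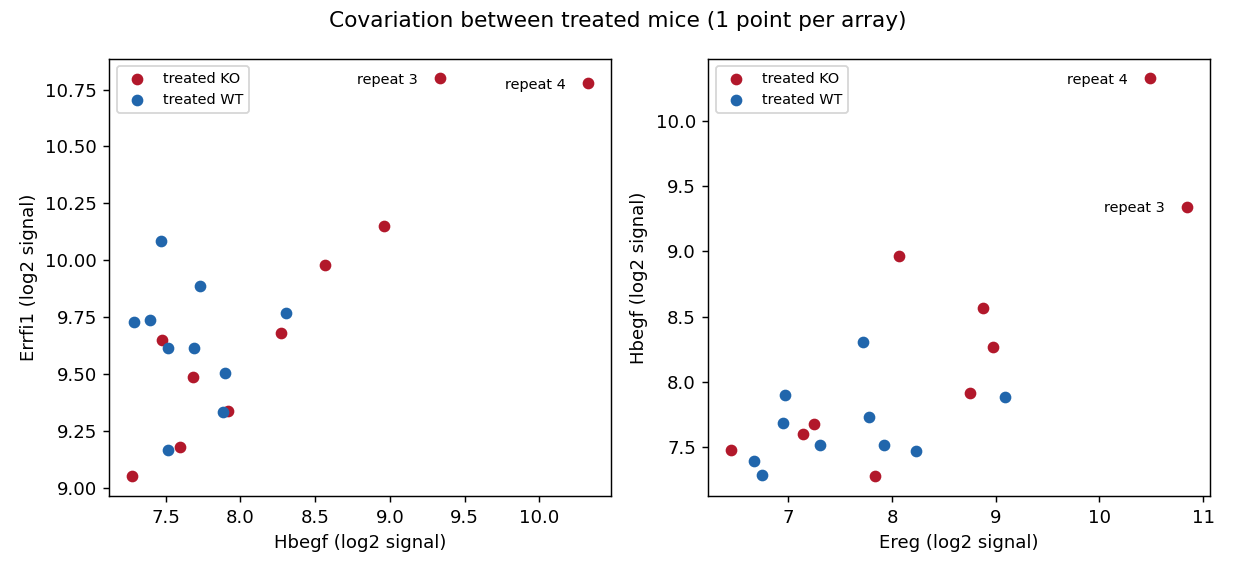
Log2 signal of Errfi1 against Hbegf (left) and of Hbegf against Ereg (right) in treated KO mice (red) and treated WT mice (blue), 1 point per array. Hbegf and Errfi1 line up over the 10 treated KO arrays (r = 0.933), and repeats 3 and 4 stand apart at the upper right of both panels.

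The genes whose signal ran most closely with each of the 8 over the 32 arrays were found among 10654 brighter genes and are given as a description, since the arrays share the 4 groups. Closest to Ereg were Col18a1 (r = 0.932), Cebpb (0.926) and Dusp6 (0.917), which encode a collagen, a transcription factor and a phosphatase that switches ERK off. Closest to Hbegf were Egr1 (0.910), Dusp6 (0.896) and Phlda1 (0.891), of which Egr1 and Phlda1 are early response genes. With the group means removed these 6 correlations lay between 0.83 and 0.90. Errfi1 ran with the stress-induced genes Atf3 (0.825), Ccn1 (0.717) and Dusp8 (0.681). Tgfa was nearest to Chst4 (0.843), Slc51b (0.837) and Galnt12 (0.832), and Btc to Anxa2 (0.858), Slc35b1 (0.853) and S100a10 (0.845). Egfr was nearest to Frmd4b (0.827), Gpat3 (0.801) and Osmr (0.796), Epgn to Medag (0.761), Trim15 (0.758) and Rnd3 (0.755), and Egf to Pcgf5 (0.755), Fam120aos (0.737) and Hpd (0.722).

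The counts of the following 5 lists stand against 8.70% of all genes higher and 10.0% lower with treatment in KO mice. For the treated genotypes these shares were 6.25% higher and 6.58% lower. The lists too were chosen with earlier results of these data known, so their counts are a description. Among 7 measured genes of other ligands and receptors of the family, 1 rose with treatment in KO mice and none fell. It was Nrg1, which encodes neuregulin, a ligand of ERBB3 and ERBB4. Nrg1 rose by 2.14 ± 0.30 log2 units in KO mice (limma, adjusted p = 1.71e-05) and by 1.25 ± 0.30 in WT mice (limma, adjusted p = 0.0236), where it was also the only 1 of the 7. In treated KO mice it was higher than in treated WT mice by 1.00 ± 0.26 (limma, adjusted p = 0.00949), as was Erbb2, the receptor without a ligand of its own, by 0.40 ± 0.09 (limma, adjusted p = 0.00365). Erbb3, the brightest that did not pass, differed by 0.09 there, by -0.03 with treatment in KO and by -0.23 with treatment in WT mice.

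Of 11 genes for cutting and trafficking of ligands, 3 rose and none fell with treatment in KO mice. They were the metalloprotease genes Adam8, Adam9 and Adam15, by 0.76, 0.31 and 0.24 log2 units, and Adam8 alone passed in WT mice (0.84 ± 0.22, limma, adjusted p = 0.0411). Between the treated genotypes 0 of the 11 passed in limma, and 1 had an unadjusted p under 0.05. Adam10, the brightest that did not pass, differed by 0.04 with treatment in KO mice, 0.05 in WT mice and 0.02 between the treated genotypes.

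The 20 measured genes of signal relay moved in both directions, 5 higher and 2 lower with treatment in KO mice, and 0 passed in WT mice in limma, where 2 had an unadjusted p under 0.05. Stat3, a transcription factor that the receptor and cytokines activate, rose by 0.62 and the kinase gene Akt1 by 0.45, while the adaptor gene Gab1 fell by 0.74 (limma, adjusted p = 0.00151). Relative to treated WT mice 7 were higher and 2 lower, among them Src (0.55), Map2k2 (0.42) and Gab1 (-0.42). Map2k1, which encodes the partner of MAP2K2, differed by 0.04 with treatment in KO, by -0.04 in WT and by 0.12 between the treated genotypes.

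Feedback inhibitors of the receptor and of ERK numbered 18 measured genes, of which 2 rose, a share near that of all genes, and 3 fell with treatment in KO mice, and 0 passed in WT mice in limma, where 1 had an unadjusted p under 0.05. Dusp6 rose by 0.92 ± 0.22 (limma, adjusted p = 0.00333) and differed by 0.42 in WT mice (limma, adjusted p = 0.370). Lrig1 and Lrig3 both fell, by 0.88 ± 0.15 (limma, adjusted p = 0.000185) and 0.81 ± 0.17 (limma, adjusted p = 0.00108), and LRIG1 is known for marking receptors for degradation and for its place in intestinal stem cells. Between treated KO and treated WT mice 1 was higher and 3 lower, with Dusp6 at 0.59, Lrig1 at -0.53 and Lrig3 at -0.46. Spred2, the brightest that did not pass in either comparison, differed by 0.15 with treatment in KO mice and 0.06 between the treated genotypes.

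ERK target genes were the list with the most calls in KO mice, 9 higher and 1 lower of 19 measured, with a median difference of 0.67 log2 units. Fosl1, a subunit of the factor AP-1, rose by 1.73 ± 0.27 (limma, adjusted p = 7.81e-05), Egr1 by 1.60 ± 0.41 (limma, adjusted p = 0.00592) and Ptgs2, which encodes the prostaglandin synthase COX-2, by 1.33 ± 0.40 (limma, adjusted p = 0.0191). The 1 that fell was Myc (-0.54, limma, adjusted p = 0.0332), named after its value was seen. In WT mice 0 of the 19 passed in limma and 6 had an unadjusted p under 0.05, with a median difference of 0.14. Between treated KO and treated WT mice 6 were higher and none lower, led by Ptgs2 (1.12), Junb (0.88) and Maff (0.84). Maff was the only gene of the pathway lists to pass the interaction, by 1.28 ± 0.23 (limma, adjusted p = 0.0223). Its mean went from 6.54 untreated to 7.39 treated in KO mice, and from 6.97 untreated to 6.55 treated in WT mice. The interaction thus joins a higher mean with treatment in KO mice and a lower one in WT mice. Fos, the brightest that did not pass, differed by 0.67 ± 0.33 with treatment in KO mice, by 0.74 in WT mice and by 0.27 between the treated genotypes. In untreated mice 0 genes of these 5 lists passed in limma between the genotypes, and 0 to 2 genes of a list had an unadjusted p under 0.05.

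**Figure D5:**
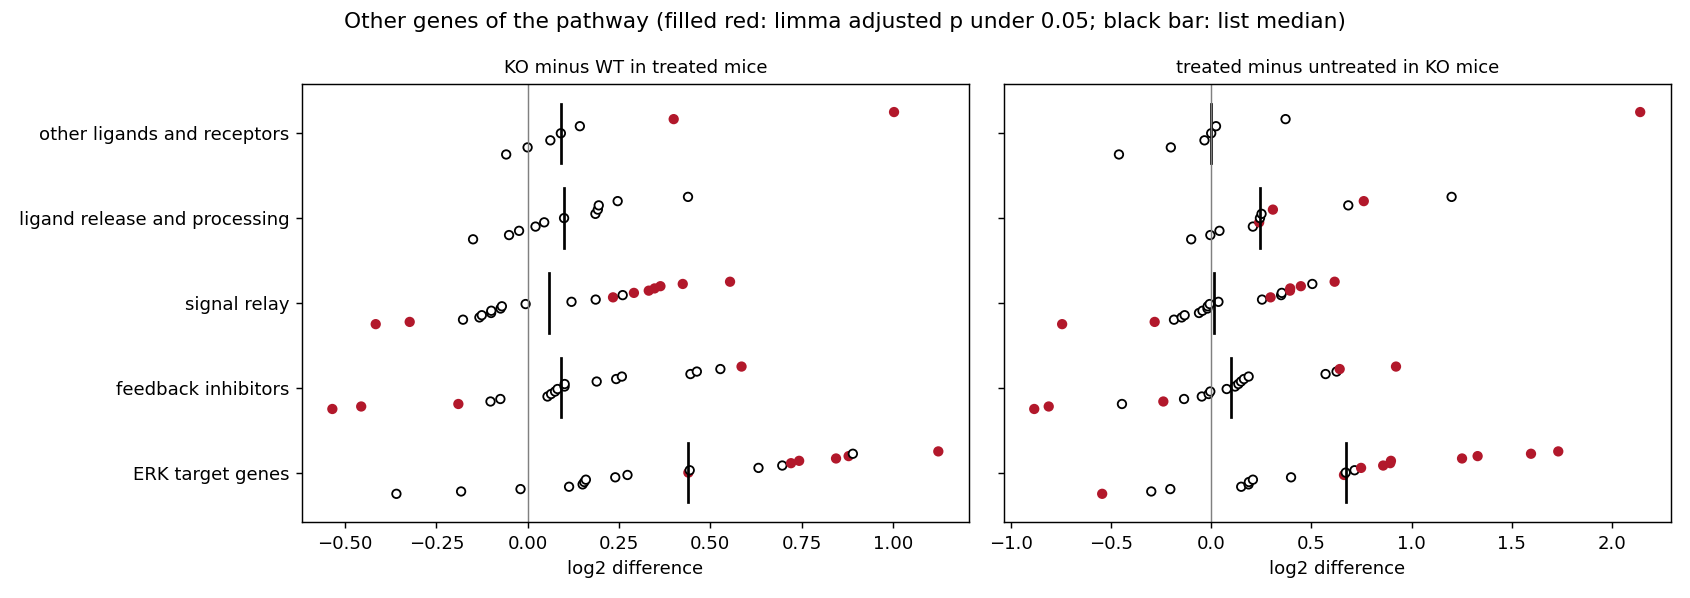
Log2 differences of the measured genes of the 5 pathway lists, KO minus WT in treated mice (left) and treated minus untreated in KO mice (right), 1 point per gene, in red where the limma adjusted p was under 0.05, with the list median as a black bar. The median of the ERK targets is 0.44 between the treated genotypes and 0.67 with treatment in KO mice.

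Markers of colon epithelium are given beside the ligands, which epithelial cells can make. The mean of the 12 colon epithelium markers was 12.31 ± 0.14 in treated KO and 12.06 ± 0.17 in treated WT mice (SD, n = 10 each). In untreated mice it was 12.05 ± 0.06 in KO and 12.08 ± 0.04 in WT (SD, n = 6 each). With treatment in KO mice 7 of the 12 markers rose (Epcam, Cdh1, Krt8, Krt19, Krt20, Vil1 and Cdx2), where 8.70% of all genes did. The other 5 did not pass, and Car4 (-0.11) and Slc26a3 (-0.09) differed in the opposite direction. Between the treated genotypes 4 of the 12 were higher, where 6.25% of all genes were, and 8 did not pass. When this mean was added to the model, a step chosen after the data were seen, only Egfr of the 8 genes passed with treatment in KO mice. Over all genes 930 did, or 5.11%. None of the 8 passed between the treated genotypes, where 137 of all genes did, or 0.753%. With treatment in KO mice the Ereg difference was then 1.72 ± 0.60 (limma, adjusted p = 0.0861), against 1.88 ± 0.48 without the mean. That of Hbegf was 0.82 ± 0.40 (limma, adjusted p = 0.222), Btc 0.24 ± 0.12 (0.255), Epgn 0.46 ± 0.31 (0.406) and Tgfa 0.25 ± 0.13 (0.261). The mean itself ran from 12.10 to 12.50 in treated KO and from 11.94 to 12.13 in untreated KO mice. It nearly follows treatment, so this fit cannot tell its part from that of treatment.

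The counts of the following markers stand against 8.70% of all genes higher and 10.0% lower with treatment in KO mice. Between the treated genotypes the shares were 6.25% higher and 6.58% lower. A list with 1 call is not read as a result, since the lists are short. The means of the 7 macrophage and monocyte markers ran between 7.67 and 9.34 in treated KO, 8.19 and 8.85 in treated WT, 7.87 and 8.34 in untreated KO, and 7.83 and 8.32 in untreated WT mice. With treatment in KO mice 1 of the 7, Cd68, rose and none fell. Of the other 6, Csf1r (-0.08) and Cd14 (-0.18) differed in the opposite direction. With this mean in the model, also chosen after the data were seen, Epgn (0.64, limma, adjusted p = 0.118) and Egfr (0.33, limma, adjusted p = 0.184) no longer passed with treatment in KO mice, and 4 of the 8 genes did. The Ereg difference was then 1.24 with treatment in KO mice (limma, adjusted p = 0.0379), 0.43 in WT mice (limma, adjusted p = 0.777) and 0.98 between the treated genotypes, where it passed (limma, adjusted p = 0.0350). In that fit 3028 of all genes, or 16.6%, passed between the treated genotypes, in place of 12.8%. Means of 4 neutrophil markers ran between 3.59 and 6.62 in treated KO, 3.96 and 6.13 in treated WT, 3.49 and 4.26 in untreated KO, and 3.38 and 4.50 in untreated WT mice, with Cxcr2 at the floor on every untreated array. In KO mice 1 of the 4 rose with treatment. Means of 7 mast cell and basophil markers ran between 3.85 and 6.43 in treated KO, 3.74 and 4.30 in treated WT, 3.93 and 4.20 in untreated KO, and 3.54 and 3.84 in untreated WT mice. With treatment in KO mice 2 of these 7 rose, and 5 were higher between the treated genotypes, while Mcpt4 and Fcer1a were at the floor on every untreated WT array. Means of 5 B and plasma cell markers ran between 5.14 and 6.73 in treated KO, 5.60 and 7.02 in treated WT, 5.93 and 7.36 in untreated KO, and 6.26 and 7.62 in untreated WT mice. In both comparisons 2 of these 5, Jchain and Mzb1, were lower in treated KO mice. With treatment in WT mice 3 of the 5 were lower, where 1.84% of all genes passed in either direction. The median difference of the 5 with treatment was -1.09 in WT and -0.78 in KO mice. The part of neutrophils, mast cells and B cells in the results was not tested.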

How the data were processed

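RNA of 32 distal colons was measured on Affymetrix arrays, and the deposited values are log2 probe set signals. The program that summarised the probes is not given in the sources used here. The values show that the authors scaled each array, with a 2% trimmed mean of linear signals between 150.9 and 151.3, and raised signals under 10 to 10.

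Symbols came from the platform annotation (34958 probe sets with 1 symbol, 932 with several). Log2 values were quantile normalized and 18194 genes, 1 probe set each, were fitted with limma 3.58.1 in R 4.3.3 over all 32 arrays (28 residual degrees of freedom). Tests were two-sided, adjusted by Benjamini and Hochberg's method across the 18194 genes, and passed under 0.05. Changes are log2 differences ± SE. Correlations used permutation tests in SciPy 1.17.1 under Python 3.11.15, and the scripts were tested on simulated data.

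Members and lists were chosen with earlier results of these data known. All 8 members are named. So are, per member, the 3 nearest genes by Pearson's r among genes brighter than the 40th percentile (predicted genes left out), and, per pathway list and comparison, up to 3 called genes with the largest change and the brightest that did not pass. Alternatives covered scaling, filters, probe set choice, arrays fitted, weights, priors, covariates, thresholds and leaving out each array.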

Additional observations from a re-analysis of the deposited data

How the results depend on the processing

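With repeat number as a replicate block, 1 of the 8 genes (Hbegf) passed the treatment response in WT mice in place of 0, and the counts over the 8 genes moved by no more than 1.5 times in the other comparisons. The labels do not say that the numbers pair mice. Arrays with the same number in different groups had a median correlation of deviations of -0.01 over 40 pairs (-0.21 to 0.44). That median does not settle whether some mice were handled together. In WT mice 1 also passed without dim genes and with only the compared groups fitted (Hbegf), and 2 with array weights (Ereg and Hbegf). Leaving out each array gave 0 to 1, the 1 being Hbegf without treated KO repeat 4 (limma, adjusted p = 0.0232). In KO mice 2 passed with only the compared groups, 3 at an adjusted p under 0.01, 2 at a change of at least 1 log2 unit and 1 with the colon epithelium mean. Leaving out each array gave 5 to 6. Between treated KO and WT mice the count of 1 became 2 without dim genes, 2 with probe sets averaged (Btc and Egfr, with Tgfa lost), 3 with every probe set, 2 with the macrophage mean, 0 with the epithelium mean and 0 at 1 log2 unit. Leaving out each array gave 1 to 3, with 3 without treated KO repeat 6 or 9. Egfr turned to 0.27 with probe sets averaged (limma, adjusted p = 0.0136). The interaction had 1 with array weights (Tgfa, 0.57, limma, adjusted p = 0.0458). Untreated genotypes stayed at 0 under all 48. The causes were not tested.

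Over all genes, the 335 calls in WT mice became 212 with median centring, 891 with only the compared groups, 1459 with array weights and 75 with 3'/5' RNA integrity as a covariate. Leaving out 1 array gave 165 (without untreated WT repeat 6) to 446, with 165 to 203 when the array was an untreated WT one and 201 without treated WT repeat 7. The 3406 in KO mice became 1919 with only the compared groups and 930 with the epithelium mean. The 2334 between treated genotypes became 1340 with only those groups, 1404 with squamous and skeletal muscle means and 137 with the epithelium mean. The 10 of the interaction ran between 0 (epithelium mean) and 258 (array weights), with 3 under the replicate block, 20 with median centring, 140 with the macrophage mean, 36 without treated KO repeat 6 and 164 without treated KO repeat 9. Under median centring 65.8% of the calls in KO mice were higher, against 46.5%, and 74.6% between treated genotypes, against 48.7%. The floor limits Epgn most.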
